A study of Mus musculus and Sus scrofa with 18 samples.

Results

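The 9 genes described here encode complement components and receptors of the mouse: C1qa, C1qb and C1qc, C4b, C3, Cfb, C3ar1, C5ar1 and Serping1. They were picked by name from the 55357 genes of the mouse count table, and all 9 were among the 19463 genes that passed the filter on low counts. The table held 9 striatum libraries, 3 a group, from a study asking whether an RNA-cutting CRISPR enzyme, CasRx, directed at Huntingtin (HTT) mRNA changes the course of Huntington's disease (HD). WT mice received AAV9-Ctrl gRNA, a control guide without CasRx. The HD mice were heterozygous HD 140Q-KI, in which 1 Htt allele carries exon 1 of the human gene with its CAG repeat expanded. Untreated HD mice received AAV9-CasRx, driven by the ubiquitous CAG promoter, with AAV9-Ctrl gRNA. Treated HD mice received AAV9-CasRx with AAV9-HTT gRNAs on a pair of U6-driven vectors. By the study's methods, both striata were injected at 6 months of age and the brains were taken 6 weeks later. The WT mice carried neither the knock-in nor CasRx, so differences of either HD group from WT belong to both together, and the knock-in and the CasRx vector cannot be told apart. The libraries also split by Y-linked counts, given below, and in treated against WT this split cannot be told apart from the group. The labels number the libraries without tying them to animals, so p-values measure the spread between these libraries.

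Complement is a cascade of plasma and tissue proteins that tags targets for uptake by phagocytes. In the classical pathway C1q binds a target, C4 and C2 are cleaved, and the enzyme they form cleaves C3. C3 fragments coat the target, and factor B, encoded by Cfb, amplifies C3 cleavage in the alternative pathway. In brain, microglia make most C1q, astrocytes and other glia make C4 and C3, and C1q and C3 are known for tagging synapses that microglia then remove.

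Total counts ran from 27184356 to 32102121 a library. Levels are given as CPM, counts scaled by TMM-adjusted library size. Htt itself was lower in the HD groups, with 189, 191 and 182 CPM in WT, 145, 140 and 150 in untreated and 140, 130 and 136 in treated libraries. The treated libraries lay below the untreated ones, by 0.10 on the log2 scale, which missed the threshold in edgeR. Untreated replicate 3 stood apart: it was the highest of the 9 libraries for all 9 complement genes, as it was for 17.3% of all tested genes. The fold changes of the 9 genes against WT are therefore given with and without it. This library was singled out from the values of these same genes, so calls made without it are not an independent result. Y-linked genes had summed levels of 126 to 166 CPM in the WT libraries and 164 CPM in untreated replicate 1. They had 0 counts in the other 5 libraries. Treated against WT thus follows this split fully, and untreated against WT follows it but for untreated replicate 1. The labels give no sex, and by the study's methods male and female mice were used in equal parts.

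Several complement genes were higher in the HD striata. In untreated against WT, 4 of the 9 genes (C1qa, C4b, C3 and C3ar1) rose, called by edgeR at an adjusted p below 0.05, against 4.58% of all tested genes called higher and 10.7% called in either direction. Their median log2 fold change was 1.92, against 0.02 over all tested genes. In 7 of the 9 genes, all but Cfb and C5ar1, every untreated library lay above every WT library, which was so for 15% of all tested genes. At an unadjusted P under 0.05 and at least 2-fold, 8 of the 9 were higher, all but C5ar1, against 5.57% of all tested genes. With untreated replicate 3 left out, only C4b and C3 were called, against 1.84% of tested genes called higher. The 4 calls became 2 without WT replicate 1, 0 without WT replicate 2 or WT replicate 3, 7 without untreated replicate 1, and 2 without any one of the treated libraries, which share the estimate of spread. Over all tested genes the calls went from 2080 to 2584, 912 and 1476 without WT replicates 1, 2 and 3. They were 1632 without untreated replicate 1 and 1258 to 1372 without a treated library.

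In treated against WT, C4b was the only one of the 9 genes called, against 0.904% of tested genes called higher and 3.69% in either direction. The median log2 fold change of the 9 was 1.53, against 0.0038 over all tested genes. Every treated library lay above every WT library in 8 of the 9 genes, all but Cfb, against 13.4% of all tested genes, and 7 met the definition of an unadjusted P under 0.05 and at least 2-fold, against 3.84%. When untreated replicate 3 was left out of the fit, which shares its spread over groups, 7 of the 9 were called, all but Cfb and C5ar1, against 3.45% of tested genes called higher. The treated folds hardly moved while their SEs fell. As the library was chosen on these genes, the 7 calls are not an independent result. The 1 call was lost without any one of the WT or treated libraries, and there were 2 calls without untreated replicate 1. Over all tested genes the calls went from 718 to between 136 and 1092 without a WT or treated library, and to 686 without untreated replicate 1. Both comparisons use the same WT libraries and are not independent of each other.

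**Figure D1:**
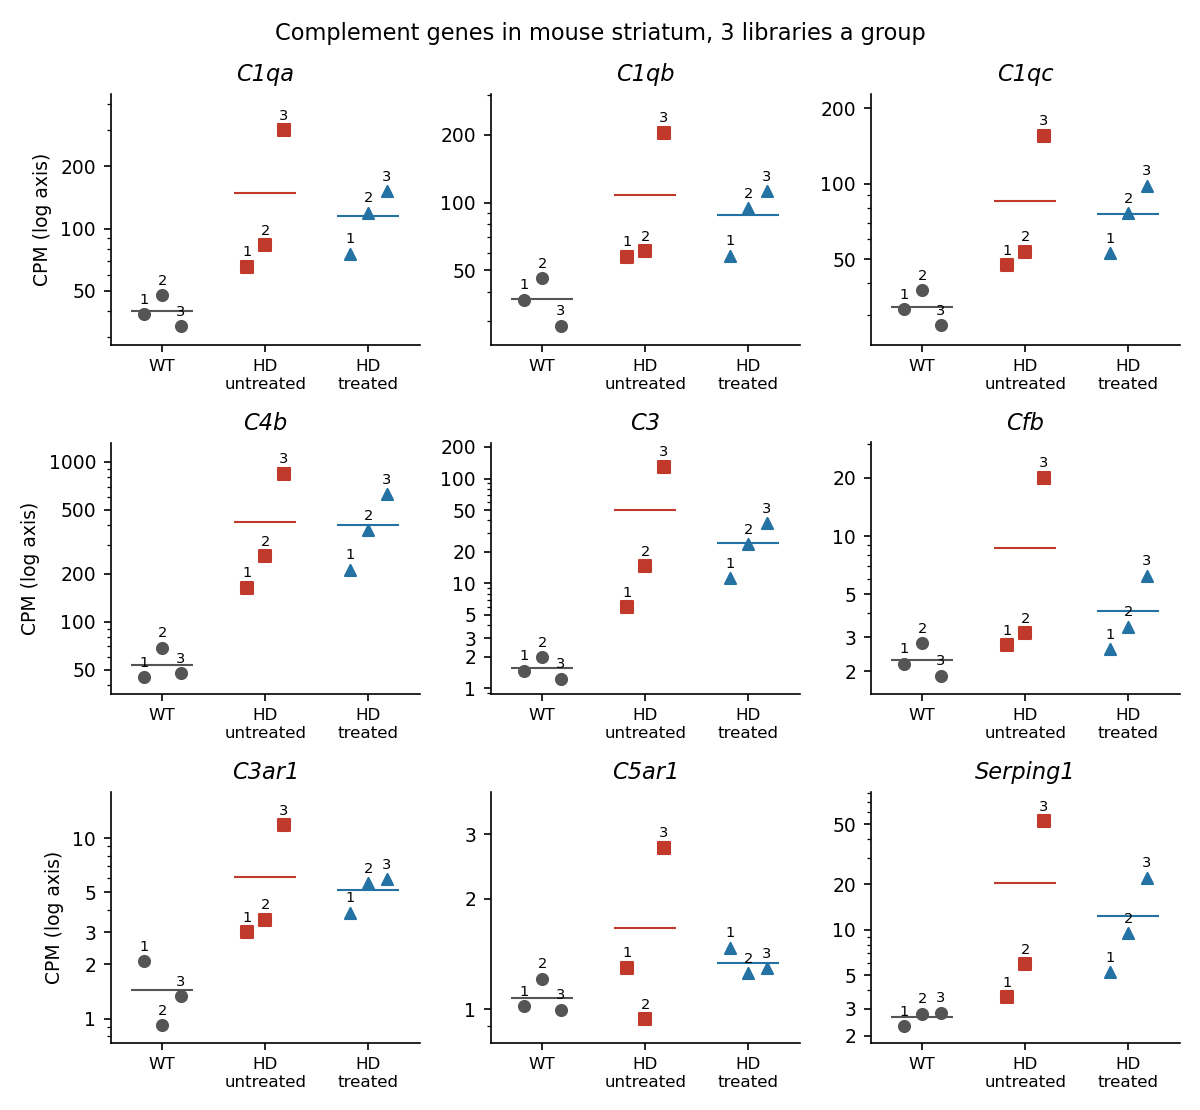
Level of each complement gene in every library, in CPM on a log axis, by group. Points are single libraries numbered by replicate and the line is the group mean; untreated replicate 3 is the highest point in all 9 panels, and in C4b and C3 both HD groups lie wholly above WT.

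C1q, the recognition molecule of the classical pathway, is built from chains encoded by C1qa, C1qb and C1qc, which lie next to each other on chromosome 4 on the same strand. C1qa stood at 38.5, 47.8 and 33.7 CPM in WT, 65.4, 83.4 and 299 in untreated and 75.6, 119 and 152 in treated libraries. Neither HD group overlapped WT, while the HD groups overlapped each other. The mean was 40.0 ± 7.16 (SD, n = 3) in WT, 149 ± 130 in untreated and 116 ± 38.3 in treated striata. C1qa rose in untreated HD mice by a log2 fold change of 1.90 ± 0.53 (SE, adjusted p = 0.0490, edgeR), a 3.73-fold difference. It was 1.53 ± 0.52 above WT in treated mice (adjusted p = 0.131), and without untreated replicate 3 the differences were 0.90 ± 0.26 (adjusted p = 0.0824) and 1.53 ± 0.24 (adjusted p = 0.00866).

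C1qb stood at 37.2, 46.2 and 28.5 CPM in WT, 57.5, 60.9 and 204 in untreated and 58.1, 94.2 and 112 in treated libraries. C1qc followed the same order of libraries, with 31.6, 37.6 and 27.3 CPM in WT, 47.4, 53.5 and 156 in untreated and 52.8, 76.4 and 98.1 in treated libraries. Both genes separated all HD libraries from all WT libraries, with smaller fitted folds than C1qa. For C1qb the log2 differences from WT were 1.53 ± 0.47 in untreated (adjusted p = 0.0693) and 1.24 ± 0.47 in treated mice (adjusted p = 0.168). For C1qc they were 1.41 ± 0.43 (adjusted p = 0.0639) and 1.24 ± 0.42 (adjusted p = 0.135). Without untreated replicate 3, the treated values of C1qb and C1qc kept their size with smaller SEs, 0.24 and 0.21, and passed the edgeR threshold (adjusted p = 0.0195 and 0.0117). The untreated ones, 0.67 and 0.65, did not (adjusted p = 0.169 and 0.135).

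C1qb and C1qc moved together more closely than any other pair of the 9 genes: their log2 levels, centred per gene over the 9 libraries, differed by a root mean square of 0.09. Their promoters are shown for that reason, as the 250 bases before the RefSeq transcript start on build GRCm38.p6, 5′ to 3′ on the gene's own strand, with capitals at each match to a core of the myeloid factor PU.1 (GAGGAA, either strand). C1qb is at chr4:136886201-136886450 on the minus strand and C1qc at chr4:136892915-136893164 on the minus strand. The promoter of C3, chr17:57228137-57228386 on the minus strand, is set beside them as the gene with the widest range of levels; it holds no match.
C1qb: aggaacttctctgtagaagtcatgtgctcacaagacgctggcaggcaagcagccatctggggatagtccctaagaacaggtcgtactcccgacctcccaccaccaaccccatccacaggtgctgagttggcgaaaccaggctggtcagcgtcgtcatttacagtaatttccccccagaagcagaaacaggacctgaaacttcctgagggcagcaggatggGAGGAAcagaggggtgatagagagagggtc
C1qc: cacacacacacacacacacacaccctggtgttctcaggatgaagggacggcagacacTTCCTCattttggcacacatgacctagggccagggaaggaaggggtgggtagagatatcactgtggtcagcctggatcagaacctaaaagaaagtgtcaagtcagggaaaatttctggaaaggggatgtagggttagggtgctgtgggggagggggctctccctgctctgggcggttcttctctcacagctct
C3: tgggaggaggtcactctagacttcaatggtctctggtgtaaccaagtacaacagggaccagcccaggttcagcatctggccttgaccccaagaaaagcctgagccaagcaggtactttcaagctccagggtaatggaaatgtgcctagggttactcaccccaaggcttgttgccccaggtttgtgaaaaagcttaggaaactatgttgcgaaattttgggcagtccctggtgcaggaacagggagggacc

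In C1qb the match reads along the gene's strand, 30 to 25 bases before the start, and in C1qc it lies on the opposite strand, 193 to 188 bases before the start. Of the 9 genes 5 had a promoter in the RefSeq table (C1qb, C1qc, C3, C3ar1 and C5ar1), and these were the 2 with a match, against 23.25% of all 32851 promoters. Matches to the core of an interferon-stimulated response element or of a gamma-activated site (TTCNNNGAA), on either strand, were in none of the 5 windows, against 2.98% and 7.02% of all promoters. These matches are letters in a window and were not tested as binding sites.

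C1qa took a larger share of C1q in the HD libraries. C1qa made up 35.9%, 36.3% and 37.7% of summed C1q CPM in WT, 38.4%, 42.2% and 45.4% in untreated and 40.5%, 41.2% and 41.9% in treated libraries. The HD shares lay wholly above those of WT, by 5.36 percentage points in untreated and 4.59 in treated mice (exact permutation test, two-sided p = 0.1 each, n = 3 a group, the smallest this design allows, and p = 0.167 adjusted over 15 such tests). The HD groups overlapped in this share (treated minus untreated difference of -0.77 percentage points, exact permutation p = 0.7).

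Summed C1q ran from 89.5 to 132 CPM in WT, 170 to 659 in untreated and 186 to 362 in treated libraries, while 13 microglial markers (Csf1r, Cx3cr1, P2ry12, Tmem119 and others) summed to 302 to 338, 337 to 643 and 431 to 514 CPM, with overlap between untreated and WT libraries. None of the 13 markers was at 0 in any library. The edgeR fit called 0 of them in untreated mice and 1 higher in treated mice. At an unadjusted P under 0.05 were 7 in untreated and 10 in treated mice, against 5575 and 4160 of the 19463 tested genes. Every HD library of the group lay above every WT library in 4 of the 13 in untreated and 11 in treated mice, against 15% and 13.4% of tested genes. Per unit of these markers C1q stood at 0.317, 0.398 and 0.296 in WT, 0.505, 0.510 and 1.02 in untreated and 0.432, 0.564 and 0.728 in treated libraries. Each HD library was above each WT library in this ratio, narrowly so for treated replicate 1 (exact permutation p = 0.1 for either HD group, n = 3, adjusted p = 0.167). In bulk tissue, more cells of a type and more RNA per cell cannot be told apart, and the part of microglial number in the C1q values was not tested.

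**Figure D2:**
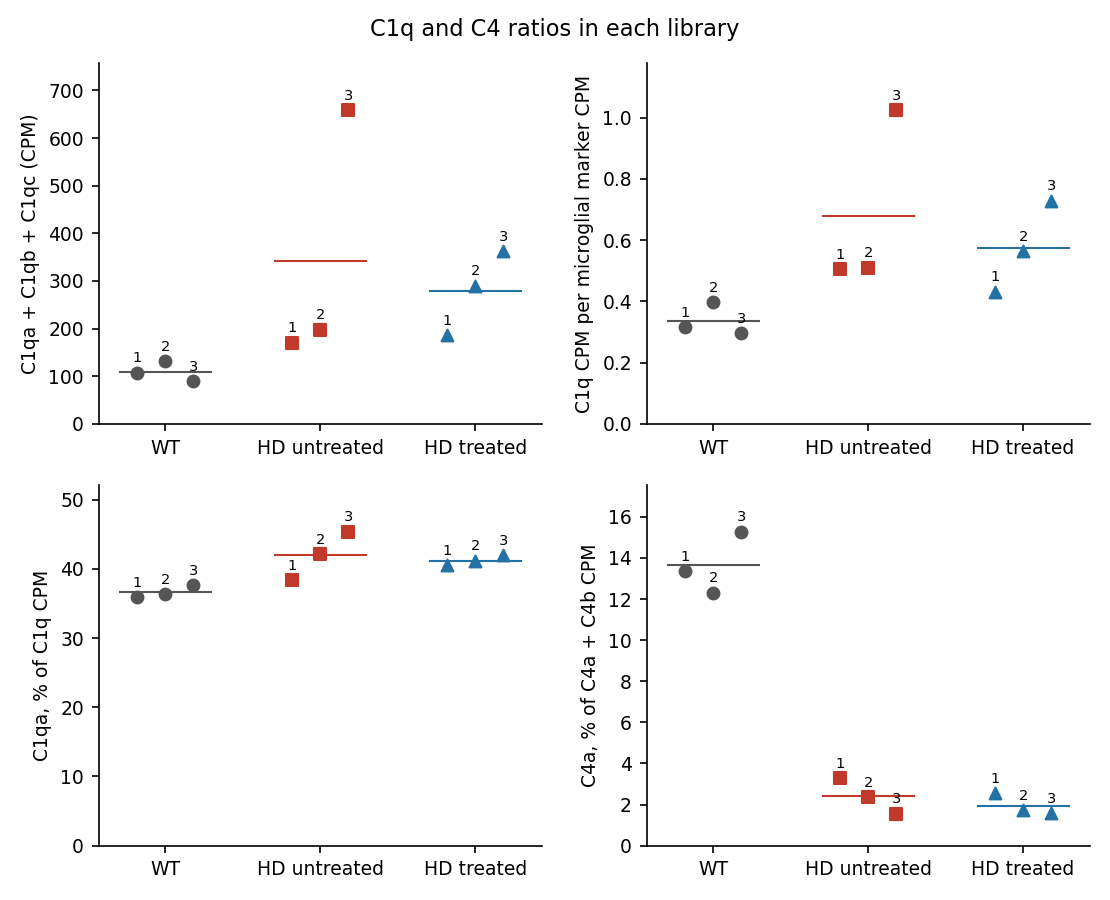
Summed C1q in CPM, C1q per unit of 13 summed microglial markers, C1qa as a percentage of summed C1q, and C4a as a percentage of C4a plus C4b, in every library by group. Points are libraries numbered by replicate and lines are group means; in all 4 panels the HD libraries lie on one side of the WT libraries.

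C4b encodes complement C4, whose cleavage follows C1q binding. It stood at 45.1, 68.8 and 47.8 CPM in WT, 163, 258 and 846 in untreated and 212, 375 and 630 in treated libraries. The lowest HD library was above the highest WT library, and the HD groups overlapped. C4b was the one gene of the 9 called in both HD groups against WT. The log2 fold change was 2.97 ± 0.61 in untreated (adjusted p = 0.0191, edgeR, 7.83-fold) and 2.91 ± 0.61 in treated mice (adjusted p = 0.0353, 7.52-fold). Leaving out untreated replicate 3 gave 1.96 ± 0.40 (adjusted p = 0.0294) and 2.91 ± 0.38 (adjusted p = 0.00453).

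The near-copy C4a, on chromosome 17 like C4b, is identical to it in 97.6% of the last 500 bases of their longest GENCODE transcripts, the end that these 3′ libraries read, so the split of reads between them is uncertain. C4a stood at 6.95, 9.65 and 8.61 CPM in WT, 5.54, 6.21 and 13.3 in untreated and 5.52, 6.52 and 10.1 in treated libraries. Its log2 differences from WT were -0.01 ± 0.35 (adjusted p = 0.989) and -0.19 ± 0.35 (adjusted p = 0.801). C4a made up 12.3% to 15.3% of C4a plus C4b in WT, 1.55% to 3.29% in untreated and 1.59% to 2.54% in treated libraries (exact permutation p = 0.1 each, n = 3, adjusted p = 0.167).

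C3, the component on which the pathways converge, had the widest range of the 9 genes. Its levels were 1.47, 1.98 and 1.23 CPM in WT, 5.96, 14.5 and 130 in untreated and 11.3, 23.7 and 37.6 in treated libraries, from 37 to 54 counts in a WT library to 3812 in untreated replicate 3. All HD libraries lay above all WT libraries, and the untreated libraries differed among themselves 21.7-fold. C3 rose in untreated mice by a log2 fold change of 5.00 ± 1.12 (adjusted p = 0.0251, edgeR) and was 3.95 ± 1.09 above WT in treated mice (adjusted p = 0.0797). Both values were called without untreated replicate 3, at 2.72 ± 0.53 (adjusted p = 0.0258) and 3.95 ± 0.51 (adjusted p = 0.00438).

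Cfb, factor B of the alternative pathway, stood at 2.19, 2.79 and 1.89 CPM in WT, 2.74, 3.16 and 20.1 in untreated and 2.60, 3.39 and 6.23 in treated libraries. Both HD groups overlapped WT, and the untreated mean of 8.66 ± 9.89 (SD, n = 3) rested on replicate 3. The log2 difference from WT was 1.92 ± 0.72 in untreated mice (adjusted p = 0.116) and 0.36 ± 0.36 without replicate 3 (adjusted p = 0.585). In treated mice it was 0.83 ± 0.71 (adjusted p = 0.546), and 0.83 ± 0.32 without that library (adjusted p = 0.168). A same-strand gene model, Gm20547, overlaps Cfb, with at most 9 counts in a library.

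C3ar1 and C5ar1 encode the receptors for the C3a and C5a fragments that complement cleavage releases, and both were counted at low depth. C3ar1 stood at 2.08, 0.92 and 1.33 CPM in WT, 3.02, 3.53 and 11.8 in untreated and 3.86, 5.63 and 5.91 in treated libraries, with 25 to 55 counts in a WT library. All HD libraries exceeded all WT libraries. C3ar1 rose in untreated mice by a log2 fold change of 2.09 ± 0.53 (adjusted p = 0.0385, edgeR) and was 1.83 ± 0.53 above WT in treated mice (adjusted p = 0.0906). These were 1.18 ± 0.33 (adjusted p = 0.0751) and 1.83 ± 0.30 (adjusted p = 0.0110) without untreated replicate 3.

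C5ar1 differed from the other receptor: its levels were 1.02, 1.21 and 1.00 CPM in WT, 1.30, 0.94 and 2.75 in untreated and 1.47, 1.25 and 1.29 in treated libraries, with 27 to 81 counts in a library. The untreated libraries overlapped WT, and the treated ones lay just above it. The log2 differences were 0.63 ± 0.37 (adjusted p = 0.304) and 0.31 ± 0.38 (adjusted p = 0.679), and without untreated replicate 3 they were 0.06 ± 0.28 (adjusted p = 0.927) and 0.32 ± 0.25 (adjusted p = 0.498). The 95% interval in untreated mice, -0.21 to 1.47, spans from slightly lower to more than 2-fold higher.

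Serping1 encodes C1 inhibitor, which blocks the C1r and C1s proteases of the classical pathway. It stood at 2.30, 2.79 and 2.83 CPM in WT, 3.58, 5.94 and 52.2 in untreated and 5.27, 9.55 and 22.1 in treated libraries. Each HD library was above each WT library, but the HD libraries spread 14.6-fold in untreated and 4.20-fold in treated mice. The log2 difference from WT was 2.96 ± 0.96 in untreated (adjusted p = 0.0788) and 2.22 ± 0.95 in treated mice (adjusted p = 0.214). Without untreated replicate 3 the untreated value was 0.85 ± 0.52 (adjusted p = 0.359) and the treated one 2.22 ± 0.48 (adjusted p = 0.0286).

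**Figure D3:**
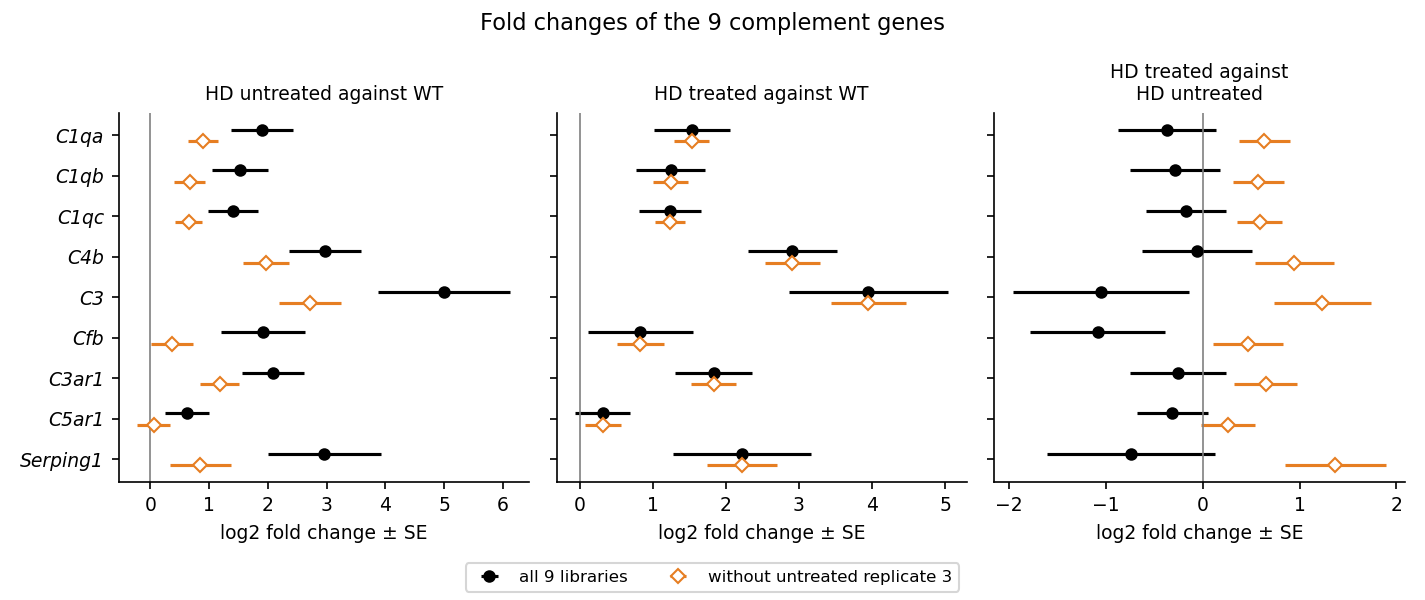
Log2 fold change with its standard error for the 9 complement genes in the 3 comparisons, from the fit of all 9 libraries (filled circles) and from the fit without untreated replicate 3 (open diamonds). In treated against untreated all 9 filled circles lie below 0 and all 9 diamonds above it.

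No difference between treated and untreated HD mice passed the test. The edgeR fit called 0 of the 9 genes in treated against untreated mice, as it called 0% of all tested genes, and 0 of the 9 had an unadjusted P under 0.05, against 5.5% of all tested genes. DESeq2 also called 0 of the 9 genes, while it called 48 of all tested genes. All 9 log2 differences were below 0, from -1.09 in Cfb to -0.06 in C4b, with adjusted p from 0.954 to 0.999. The intervals were wide, with a 95% interval of -3.09 to 0.99 for C3, -1.33 to 1.21 for C4b and -1.50 to 0.76 for C1qa.

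The sign of these differences rested on untreated replicate 3. Without it all 9 were above 0, from 0.26 in C5ar1 to 1.37 in Serping1, against 51.3% of tested genes with a positive difference. Of the 9, 0 were then called (adjusted p from 0.801 to 0.917, edgeR), as were 0 of all tested genes. An unadjusted P under 0.05 was reached by 5 of the 9: C1qa, C1qc, C4b, C3 and Serping1. The share of all tested genes at that P was not taken for this fit. The library left out was chosen as the highest for all 9 genes, so neither this turn of sign nor that count of 5 is an independent result. C4b was then 0.95 ± 0.41 higher in treated mice and C3 1.23 ± 0.50 higher (adjusted p = 0.801 each). Without untreated replicate 1, which leaves only HD libraries lacking Y-linked counts, all 9 differences were below 0, from -1.56 in C3 to -0.43 in C4b. Replicate 3 was also the highest of the treated libraries for 8 of the 9 genes, all but C5ar1.

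The 9 genes varied more among HD libraries than the typical tested gene. The median SD of their log2 levels was 1.18 in untreated, 0.51 in treated and 0.27 in WT libraries, against 0.16, 0.12 and 0.22 over all tested genes. Their mean log2 level above the WT mean was 0.84, 1.20 and 3.31 in the untreated and 1.13, 1.73 and 2.23 in the treated libraries. In untreated replicate 1, the one HD library with Y-linked counts, 8 of the 9 genes (all but Cfb) were above every WT library, against 30.1% of all tested genes in that library. With the Y-linked share as a covariate, 0 of the 9 were called by edgeR in either comparison with WT, with 2 and 0 at an unadjusted P under 0.05. That fit called 457 and 5 of all tested genes, against 2080 and 718 without the covariate. Within groups the summed Y-linked levels differed mainly in untreated mice, at 164, 0 and 0 CPM. The adjustment thus rests largely on the untreated libraries, replicate 3 among them, and this fit cannot decide the part of the Y-linked split.

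Interferon-response genes and markers of other cells also differed between the libraries. Their counts of called genes stand against 4.58% of tested genes called higher and 6.1% called lower in untreated against WT. In treated against WT these shares were 0.904% and 2.78%. Counts at an unadjusted P under 0.05 stand against 5575 of the 19463 tested genes in untreated and 4160 in treated against WT. The 26 interferon-response genes summed to 111 to 115 CPM in WT, 316 to 1975 in untreated and 290 to 1347 in treated libraries, highest in untreated replicate 3, and 22 and 5 of them rose against WT. Of 9 T cell markers, 4 rose and 1 (Cd4) fell in untreated mice, and 0 rose and 1 fell in treated mice, with Cd3d and Cd3g at 0 in every WT library. The list summed to 62.6 to 80.2 CPM in WT, 20.7 to 75.8 in untreated and 35.6 to 47.0 in treated libraries and was mostly Cd4 in WT. The 6 B cell and plasma cell markers summed to 0.918 to 1.44, 8.42 to 100.1 and 59.1 to 121 CPM, with 2 and 3 called higher and Ms4a1 at 0 in every WT library. The 10 monocyte and macrophage markers summed to 7.37 to 9.04, 6.31 to 27.7 and 11.6 to 19.7 CPM, with 1 higher and 1 lower in untreated and 1 higher in treated mice. The 8 astrocyte markers summed to 3093 to 3801 CPM over all libraries, with 0 and 1 called by edgeR, and 3 and 4 at an unadjusted P under 0.05. Among them Gfap, the intermediate filament of astrocytes, stood at 143, 180 and 86.2 CPM in WT, 231, 264 and 575 in untreated and 238, 477 and 369 in treated libraries. Every HD library lay above every WT library for Gfap, with log2 differences of 1.39 ± 0.40 (adjusted p = 0.0547) and 1.40 ± 0.40 (adjusted p = 0.0838) that missed the threshold. Of 11 markers of striatal neurons, 11 fell in untreated and 10 in treated mice, and the list summed to 6846 to 8863 CPM in WT, 2081 to 2469 in untreated and 3289 to 3324 in treated libraries. Of 7 endothelial markers 2 rose in each HD group, with 6 in untreated and 7 in treated mice at an unadjusted P under 0.05. Their sums were 149 to 183, 196 to 241 and 213 to 231 CPM. The 5 red blood cell markers summed to 107 to 190.02, 3.09 to 67.3 and 2.77 to 51.5 CPM with 0 called by edgeR, though 0 and 5 had an unadjusted P under 0.05. Of 6 oligodendrocyte and 8 choroid plexus markers, 1 of each list fell in untreated mice, with 2 and 8 at an unadjusted P under 0.05. In treated mice 0 of either list was called, with 1 and 0 at that P. The median log2 difference of the choroid plexus list was -3.46 in untreated and -1.33 in treated mice. In tissue RNA, fewer cells of a type and less RNA per cell cannot be told apart. The part of these cells and genes in the complement values was not tested.

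Of 46 other complement genes 31 passed the filter on low counts. In untreated against WT, 5 of the 31 rose and 1 fell, against 4.58% and 6.1% of all tested genes, and in treated against WT 1 rose and 0 fell, against 0.904% and 2.78%. Their median log2 fold changes were 0.34 and 0.20. Among the genes that act with C1q, C1s1, a protease of the C1 complex, rose in untreated mice by 2.36 ± 0.65 (adjusted p = 0.0472) and C2, the partner of C4, by 2.91 ± 0.79 (adjusted p = 0.0456). C1s1 stood at 0.98, 1.03 and 0.70 CPM in WT, 1.9996, 1.88 and 10.1 in untreated and 1.69, 2.83 and 3.29 in treated libraries, with no overlap between HD and WT. C2 stood at 0.68, 1.03 and 0.76 CPM in WT, 1.72, 2.45 and 14.5 in untreated and 1.59, 2.47 and 4.20 in treated libraries, again without overlap.

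Itgax, which encodes the alpha chain of complement receptor CR4, was the only one of the 31 called in both HD groups. Its levels were 0.34, 0.15 and 0.43 CPM in WT, 1.72, 3.32 and 17.5 in untreated and 3.46, 6.42 and 9.04 in treated libraries. The log2 fold change was 4.59 ± 0.93 in untreated (adjusted p = 0.0176) and 4.33 ± 0.93 in treated mice (adjusted p = 0.0375), and without untreated replicate 3 both calls stood (3.01, adjusted p = 0.0174, and 4.33, adjusted p = 0.00355). Itgam, the alpha chain of CR3, which binds C3 fragments, was 0.83 ± 0.30 (adjusted p = 0.101) and 1.01 ± 0.30 (adjusted p = 0.0931) above WT, and without untreated replicate 3 these were 0.37 ± 0.19 (adjusted p = 0.276) and 1.01 ± 0.17 (adjusted p = 0.0117).

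Masp1, a protease of the lectin pathway, rose in untreated mice by 0.76 ± 0.20 (adjusted p = 0.0406) and was 0.19 ± 0.20 above WT in treated mice (adjusted p = 0.624). Susd4, a complement regulator, rose by 0.37 ± 0.08 (adjusted p = 0.0224). It stood at 112, 110 and 120 CPM in untreated libraries, highest in replicate 3, against 97.6, 86.5 and 79.3 in WT. Cd59a, which blocks the membrane attack complex, fell by 1.23 on the log2 scale (SE 0.32, adjusted p = 0.0399). It stood at 6.76, 17.9 and 16.3 CPM in WT, 6.03, 5.81 and 5.67 in untreated and 6.10, 8.07 and 9.24 in treated libraries, with WT replicate 1 near the HD libraries. The 8 choroid plexus markers also differed within WT, summing to 66.0, 3809 and 1233 CPM, and their part in the Cd59a value was not tested. Without untreated replicate 3 none of C1s1, C2, Masp1, Susd4 and Cd59a was called in untreated mice (adjusted p from 0.0698 to 0.0980). In treated mice that fit called 6 of the 31 higher, against 3.45% of tested genes, with C1s1 at 1.53 ± 0.30 (adjusted p = 0.0207) and C2 at 1.74 ± 0.38 (adjusted p = 0.0306). The same fit called 1 lower, Cfp, at -0.66 ± 0.17 (adjusted p = 0.0497), where 6.96% of tested genes were called in either direction. Other well-counted regulators missed the threshold: Clu differed from WT by -0.24 and -0.14, Csmd1 by -0.12 and -0.29, Vtn by 0.33 and 0.37, and Cr1l by -0.05 and 0.10, with adjusted p from 0.0688 to 0.790. Of these, Vtn was called in treated mice when untreated replicate 3 was left out (0.38 ± 0.08, adjusted p = 0.0335).

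The terminal components were low. Of 7 listed, C7, Hc (complement C5) and C8g passed the filter, with 0 called by edgeR and 0 at an unadjusted P under 0.05. In all, 7 of the 46 genes (Mbl1, Cfd, C6, C8b, C9, Cpn2 and Vsig4) had 0 counts in every library, which allows up to 0.113 CPM in a library from counting error alone.

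**Figure D4:**
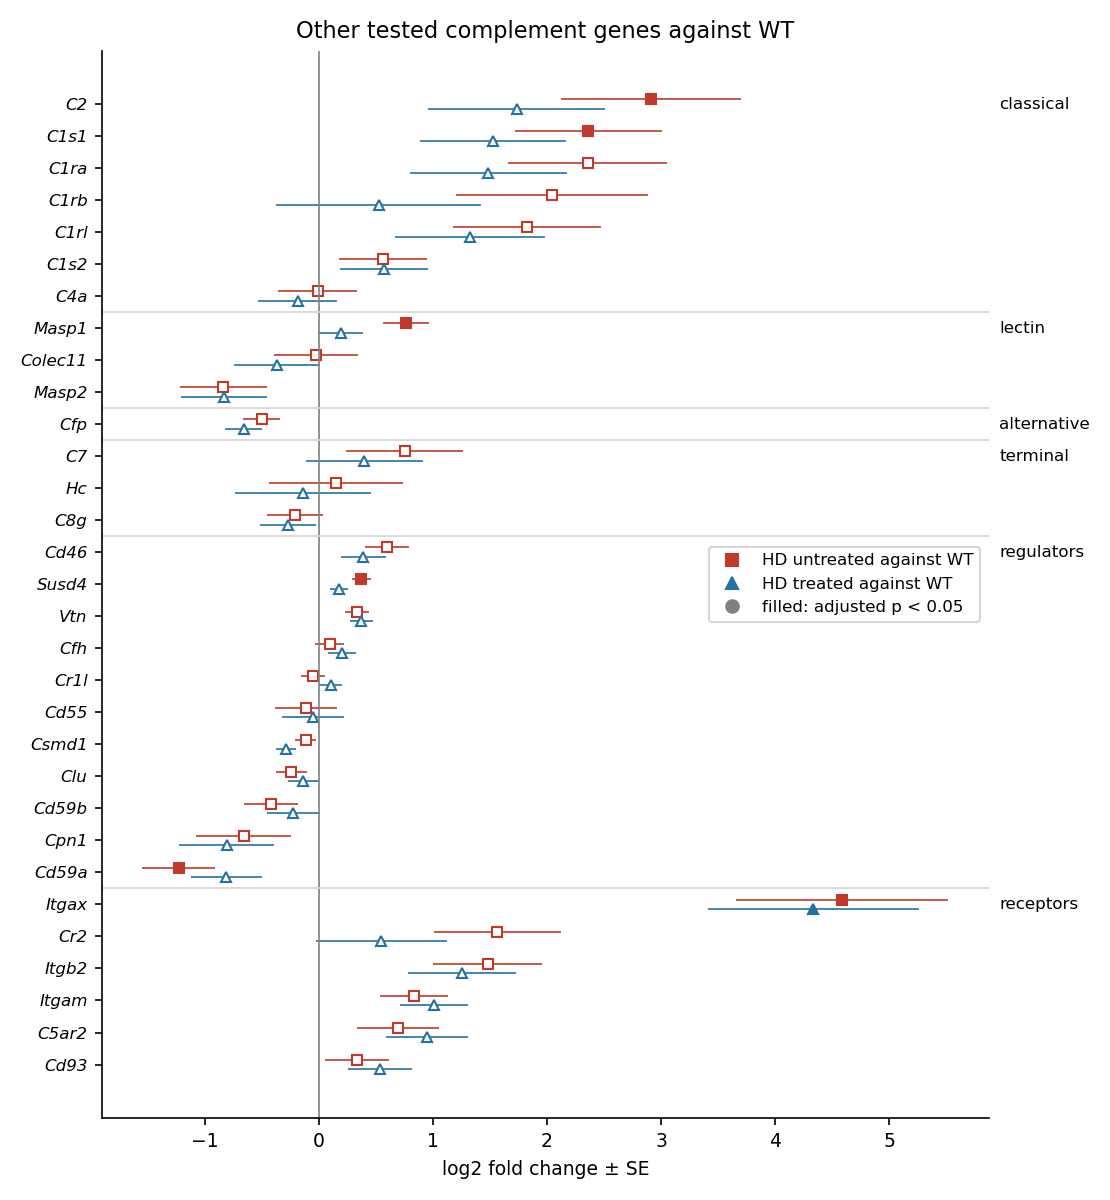
Log2 fold change with its standard error against WT for the 31 other complement genes that passed the filter, in untreated (squares) and treated (triangles) HD mice, grouped by pathway step; filled symbols have an adjusted p under 0.05. C2, C1s1 and Itgax lie furthest to the right among the called genes, and Cd59a is the called gene to the left.

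Genes whose pattern over the 9 libraries was most like each of the 9 were found by the root mean square difference of centred log2 levels. Nearest to C1qa was Ctss (0.16), a lysosomal protease, and nearest to C1qb and C1qc was Tyrobp (0.17 and 0.11), an adaptor of myeloid receptors and one of the microglial markers used above. For C4b the nearest was H2-D1 (0.16), with H2-K1 next (0.22), both major histocompatibility class I genes, and for C3 H2-Q6 (0.20), of the same class. Serping1 was closest to Gbp5 (0.21), a guanylate-binding protein, and then to Il2rg (0.26) and Irf1 (0.33). C3ar1 was closest to Mpeg1 (0.23), a macrophage gene, Cfb to Ctsw (0.11), and C5ar1 to Ermard (0.14). The 3 C1q genes were nearer to each other, at 0.09 to 0.20, than any other pair of the 9, the next pair being C1qb and Cfb at 0.38.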

How the data were processed

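Striatum mRNA of 9 mouse libraries was counted from 3′ ends after oligo-dT priming. The deposited values are raw counts per Ensembl gene, made by the authors; the submitters' notes list Trimmomatic 0.39, FastQC 0.11.9, HISAT2 2.2.1 and featureCounts 2.0.1, while the study's methods name STAR. The mouse build, strand setting and any use of molecular identifiers are not given in the sources used here. The pig table was not used here. Symbols matched 94.08% of gene IDs.

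Counts were fitted over all 3 groups with edgeR 4.0.16 (R 4.3.3; filterByExpr, TMM, quasi-likelihood test, limma 3.58.1), with Benjamini-Hochberg adjustment over 19463 genes. CPM used TMM-scaled totals. Error of a fold change is its SE and of a CPM mean its SD. Counting limits use 3 counts and cover counting error only. Ratios within a library were compared by exact permutation (SciPy 1.17.1). Promoters are RefSeq's; overlaps and transcripts are GENCODE M21's (Biopython 1.88). The definition of an unadjusted P under 0.05 and at least 2-fold is the one under the study's plot of all genes; its methods give a stricter P.

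The 9 genes and all lists were chosen with earlier results of these data known. All 9 are described; of the other complement genes, those called in a comparison and the 5 highest by mean CPM among the rest are named, and of likeness the nearest of 3 genes with a mean of at least 1 CPM. C4a, C7, Hc, C8g, Cfp and single marker genes were named after their values were seen. Alternatives were DESeq2 1.42.0, no TMM, no filter, only the groups compared, the replicate number as a block, the Y-linked share as a covariate, and each library left out. A marker of the microglial list is not reported here and was left out of its sums.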

Additional observations from a re-analysis of the deposited data

How the results depend on the processing

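The counts of called genes moved with most settings, while the direction against WT of the 9 genes held except with the Y-linked share as a covariate, where treated against WT turned for Cfb (-0.9998), C5ar1 (-0.15) and Serping1 (-0.37). The adjustment in that fit rests largely on the untreated libraries. In untreated against WT, where 4 of the 9 were called, the count was 8 at an unadjusted P under 0.05 and at least 2-fold, 1 without the filter, 1 in the fit of only the groups compared, 0 with the Y-linked covariate, 6 in DESeq2 and 4 without TMM, and from 0 to 7 with a library left out. Over all tested genes, where 2080 were called, these settings gave 1588, 1096, 726, 457, 3473 and 2069, and 912 to 2584 with a library left out. In treated against WT, where 1 was called, the same settings gave 7, 0, 7, 0, 3 and 1, and 0 to 7 with a library left out. Over all tested genes, where 718 were called, they gave 1016, 365, 1044, 5, 1946 and 548, and 136 to 1380 with a library left out. For the other complement genes, 6 were called in untreated against WT, with 9, 2, 1, 0, 12 and 7 under these settings and 0 to 6 with a library left out; in treated against WT 1 was called, with 4, 0, 5, 0, 4 and 1, and 0 to 7. Treated against untreated gave 0 calls among the 9 and the other complement genes in every setting.

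Deviations of same-numbered libraries from their group means correlated at -0.08 to 0.24 over 9 pairs, 2 of them above 0.1. Those 2 were untreated with treated replicate 3 (0.24) and untreated with treated replicate 1 (0.19), while replicate 2 of these groups gave -0.003. Libraries of unlike number gave -0.28 to 0.16. The numbers were not taken to pair animals, and a shared origin of same-numbered HD libraries was not tested. With the replicate number as a block, 2 of the 9 were called in untreated and 2 in treated against WT, and the other complement genes gave 5 and 1. That fit called 2018 and 778 of all tested genes, and treated against untreated turned for C4b (0.0923).

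With a library left out, treated against untreated ranged from -0.71 to 0.64 for C1qa, -0.57 to 0.58 for C1qb, -0.45 to 0.59 for C1qc, -0.51 to 0.95 for C4b, -1.56 to 1.23 for C3, -1.52 to 0.47 for Cfb, -0.57 to 0.65 for C3ar1, -0.59 to 0.26 for C5ar1 and -1.46 to 1.37 for Serping1. The upper ends came without untreated replicate 3. The causes of these moves were not tested.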
